A study of Mus musculus with 4 samples.

Results

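Complement genes and receptors were examined as a set of 9 genes: the C1q chain genes C1qa, C1qb and C1qc, the components C4b and C3, the regulator Cfp, and the receptors C3ar1, C5ar1 and Cr2. The members were listed by name, without a cut on their values but with earlier results of these data known. All 9 were among the 31053 genes counted. Their levels were read in microglia, border macrophages and mural or fibroblast cells of the brain, and in macrophages, neutrophils and B cells of the spleen. The study profiled single cells from mouse brain and spleen by droplet-based 3′ RNA sequencing, with 1 library for each tissue of aged and of young mice, which makes 4 groups. The labels give the age of the mice only as aged or young and give no strain or genotype. They state that mice received tamoxifen, that tissue was taken 4 weeks later, that labelled (tdTomato+) natural killer (NK) cells were measured, and that cells high in the leukocyte antigen CD45 (CD45hi) were sorted. Every group here shares the tamoxifen treatment and the sort. The labels also name neuroblast as the cell type of all 4 libraries, spleen included, and that label was not used.

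Complement is a cascade of blood and tissue proteins that marks targets for uptake and calls in leukocytes. The classical pathway starts when C1q, built from the A, B and C chains, binds a target, after which C4 and then C3 are cleaved and deposited. The alternative pathway amplifies C3 deposition, and properdin, the product of Cfp, stabilises its convertase. Small fragments released on the way act on the receptors encoded by C3ar1 and C5ar1, while C3 fragments left on the target are bound by complement receptor 2, encoded by Cr2, on B cells. In brain, microglia are the best known source of C1q, and complement has been studied there for its part in the removal of synapses.

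After quality filters 10238 cells of aged brain, 5317 of aged spleen and 6350 of young spleen were used, with median UMI counts per cell between 2158.5 and 4630. In young brain 4757 of 8111 cells were left out because their barcodes held more UMIs in the aged spleen library, which left 3354. Of the young brain cells, 54.8% shared a barcode with an aged spleen cell, against 43 shared barcodes or fewer in each of the other pairs of libraries. Only 1 microglia and 1 border macrophage were among those left out, and keeping them changed the aged to young ratio of C4b from 1.88 to 1.90 in border macrophages and left it at 2.97 in microglia. Cells were named by marker genes that include none of the complement genes, and each name below stands for cells like that type. Microglia numbered 6023 in aged and 3010 in young brain and had all 11 microglial markers. Border macrophages, which line the meninges and vessels, numbered 841 and 191 and were led by Mrc1, Ms4a7 and Pf4. Mural or fibroblast cells numbered 172 and 4, neutrophils 78 in aged brain, 5 in young brain, 40 in aged spleen and 51 in young spleen, B cells 1933 in aged and 2410 in young spleen, and red pulp macrophages of the spleen 41 and 70. Microglia usually carry little CD45, so the sort can set their share, and shares of classes were not compared.

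All 9 genes lie on the minus strand of the mouse genome (build GRCm38, GENCODE M21 annotation) and are protein coding. The C1q chain genes are neighbours on chromosome 4, within 18675 bases from 136880129 to 136898803: C1qb from 136880129 to 136886187, C1qc from 136889804 to 136893065 and C1qa from 136895917 to 136898803. C4b spans 34728380 to 34743882 and C3 spans 57203970 to 57228136 on chromosome 17, Cfp spans 20925454 to 20931555 on X, C3ar1 spans 122847138 to 122856161 on 6, C5ar1 spans 16246743 to 16259540 on 7 and Cr2 spans 195136811 to 195176716 on 1. Only C3 overlaps another annotated gene, the microRNA gene Mir6978 on the same strand. C4a, a near-identical neighbouring copy of C4b, was not analysed here, and reads that the pair share could not be told apart.

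Promoter sequences from RefSeq (GRCm38.p6) were matched for 7 of the 9 members. Those of C1qb and C1qc are shown because the C1q chains had nearly the same profile over the cell classes, and that of Cr2 because its level followed a different lineage. They were searched on both strands for GAGGAA, the core bound by the myeloid factor PU.1, and for TGCTGAC, part of the MAF recognition element. The motifs do not overlap each other. Capitals mark a match, sequences run 5′ to 3′ on the minus strand, and bases inside the annotated gene were left out of the printed stretch.
C1qb, chr4:136886201-136886450: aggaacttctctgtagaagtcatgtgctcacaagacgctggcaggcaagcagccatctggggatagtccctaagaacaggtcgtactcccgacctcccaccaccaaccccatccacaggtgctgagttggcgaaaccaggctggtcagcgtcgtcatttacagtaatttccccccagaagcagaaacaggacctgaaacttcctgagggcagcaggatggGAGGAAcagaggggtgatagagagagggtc
C1qc, chr4:136893066-136893164: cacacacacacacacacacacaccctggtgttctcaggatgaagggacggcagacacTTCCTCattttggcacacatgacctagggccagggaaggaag
Cr2, chr1:195176720-195176969: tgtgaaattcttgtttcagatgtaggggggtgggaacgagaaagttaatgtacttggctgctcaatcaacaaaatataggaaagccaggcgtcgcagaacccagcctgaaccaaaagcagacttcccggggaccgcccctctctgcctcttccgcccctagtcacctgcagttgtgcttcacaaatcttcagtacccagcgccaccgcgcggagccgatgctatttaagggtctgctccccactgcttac
GAGGAA stood in C1qb at 30 bases before the RefSeq start, and its reverse complement TTCCTC in C1qc at 193 bases before the RefSeq start, which lies 151 bases inside the annotated gene. The other 5 promoters held neither motif, and TGCTGAC was in none of the 7. Each search covered the 250 bases before the RefSeq start, also where fewer are printed. Among 32851 mouse promoters searched over the same 250 bases, 23.3% held GAGGAA and 3.81% held TGCTGAC, so these matches describe the letters only.

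A level below is in CPM, the gene's UMIs per 1000000 UMIs after the cells of 1 class and library were pooled, and a share is the percentage of cells with at least 1 UMI of the gene. With 1 library in each group there are no replicates and no test can be made. Intervals are exact 95% intervals (Poisson for levels, Clopper-Pearson for shares, conditional binomial for ratios) and cover counting error only. A gene was counted as higher or lower when its ratio reached 1.5-fold with at least 50 UMIs over both sums, and the same rule over all genes gives the background. Droplets with at most 100 UMIs hold RNA free in the suspension, and the level of a gene in them is called free RNA below. A cell can carry some of this RNA without expressing the gene, but how much was not estimated. A level below free RNA therefore does not by itself show that a class lacks expression.

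The C1q chain genes were present in nearly every microglia and border macrophage of both brains and were somewhat lower in the aged library, within 1.5-fold. In microglia C1qa stood at 8298 CPM (interval 8253 to 8343, from 131429 UMIs) in aged and 10314 CPM in young brain, in 99.9% and 99.2% of cells. C1qb stood at 6736 and 8486 CPM, and C1qc at 5471 and 5994 CPM. The aged level was 0.805 times the young one for C1qa (0.797 to 0.812), 0.794 for C1qb (0.786 to 0.802) and 0.913 for C1qc (0.902 to 0.924). All of these intervals lie below 1, and none reaches the 1.5-fold rule. The 11 microglial markers moved the same way, at 28681 CPM summed in aged and 33278 CPM in young microglia, and the part of this shift in the C1q values was not tested. Most aged microglia (5679) fell in cluster 0, whereas 2855 young microglia fell in cluster 3. Within cluster 3 the aged to young ratios were 0.765 for C1qa, 0.779 for C1qb and 0.897 for C1qc, where 25.2% of all genes passed the rule. Within cluster 0, with 79 young cells and 33.1% of all genes past the rule, they were 0.794, 0.733 and 0.843.

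Border macrophages showed the same order. C1qa stood at 7347 CPM in aged and 8559 CPM in young brain, C1qb at 5172 and 6107 CPM, and C1qc at 4279 and 4656 CPM, with ratios of 0.858, 0.847 and 0.919. Set against microglia of the same library, aged border macrophages had 0.885 times the C1qa level, 0.768 times the C1qb level and 0.782 times the C1qc level, again within 1.5-fold. The C1qa ratio became 1.01 when median-of-ratios size factors replaced totals, so no direction is given for it. In young brain the corresponding values were 0.830, 0.720 and 0.777.

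Summed over the 3 chains, single microglia had a median of 19993 CPM of C1q in aged and 24054 CPM in young brain, and border macrophages 16158 and 18229 CPM. The spread over cells was wide, and the 10th and 90th percentiles were 13941 and 26948 CPM in aged microglia and 15337 and 33957 CPM in young microglia. All 3 chains were found together in 99.2% of aged and 96.7% of young microglia and in 97.4% and 94.8% of border macrophages. With each cell thinned to 1000 UMIs these shares were 98.9% and 99.4% of microglia and 95.0% and 92.6% of border macrophages, so the difference between aged and young microglia did not keep its sign at equal depth. The thinned shares left out 224 aged and 443 young microglia below that depth.

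**Figure D1:**
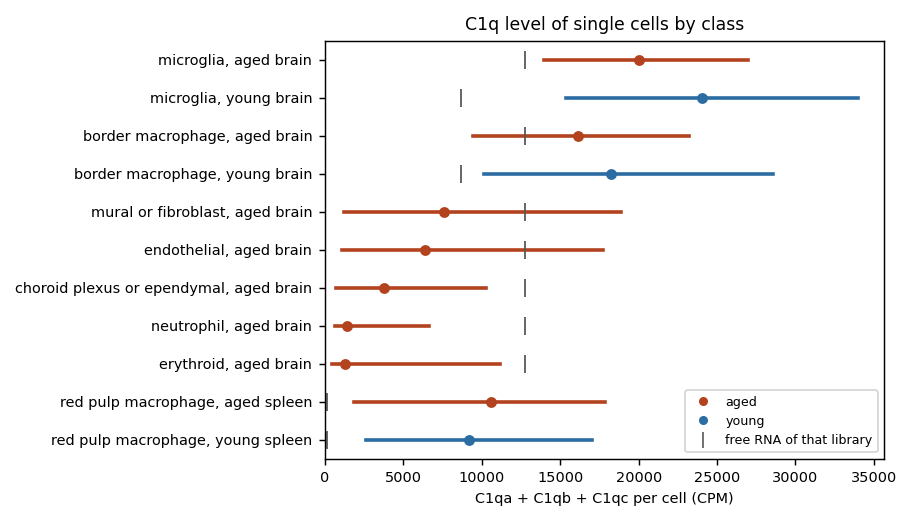
C1q level of single cells by class: dots are the median over cells of C1qa, C1qb and C1qc summed (CPM), bars run from the 10th to the 90th percentile, aged libraries in red-brown, young in blue, and grey ticks give the free RNA of the library. Microglia have the highest medians (19993 and 24054 CPM), and aged brain neutrophils and erythroid cells lie far below the free RNA.

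In microglia and border macrophages the chains kept a near constant proportion among themselves. Of all C1q UMIs in microglia, C1qa held 40.5% in aged and 41.6% in young brain, C1qb 32.9% and 34.2%, and C1qc 26.7% and 24.2%. In border macrophages C1qa held 43.7% and 44.3%, C1qb 30.8% and 31.6%, and C1qc 25.5% and 24.1%. The C1qa share was thus higher in border macrophages than in microglia of both libraries, and the intervals do not meet (43.2% to 44.2% against 40.3% to 40.6% in aged brain). Free RNA of the aged brain had another composition, with 40.2% C1qa, 38.0% C1qb and 21.8% C1qc.

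C1q transcripts were also counted in brain cells that are not macrophages, and in mural or fibroblast cells, neutrophils and erythroid cells of the aged brain they lay below the free RNA. Free RNA held C1qa at 5143 CPM in aged and 3651 CPM in young brain. Aged mural or fibroblast cells, which carried all 14 of their own markers (12620 CPM summed), had C1qa at 4314 CPM in 91.3% of 172 cells. They also held all 11 microglial markers, at 14793 CPM summed against 28681 CPM in aged microglia. Neutrophils of the aged brain had C1qa at 998 CPM in 92.3% of 78 cells, with the microglial markers at 3367 CPM summed. Erythroid cells, which make no C1q, had C1qa in 89.5% of 57 aged brain cells at a median of 4513 UMIs per cell, against a median of 2710.5 in mural or fibroblast cells. The level of mural or fibroblast cells lies above the 1919 CPM of erythroid cells, and their microglial markers do too, at 14793 against 5235 CPM summed. None of these values was read as expression by the cells themselves, and the part of microglial RNA in them was not tested. In the 4 young mural or fibroblast cells 5 of the 11 microglial markers were found.

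Spleen gave a direct contrast, because its free RNA held little C1q (C1qa 45.6 CPM in aged and 55.1 CPM in young). Red pulp macrophages, which clear aged red cells and were led by Cd5l, Slc40a1, Hmox1, Vcam1 and Spic, had C1qa at 3328 CPM (2733 to 4015) in aged and 3815 CPM (3314 to 4370) in young spleen. C1qb stood at 3359 and 3063 CPM and C1qc at 2076 and 3045 CPM. The aged to young ratios were 0.872 (0.686 to 1.11), 1.10 (0.854 to 1.40) and 0.682 (0.507 to 0.910), none past 1.5-fold. Some other settings put each chain past the rule as lower. C1qa became 0.632 with thinned cells and 0.564 with the whole myeloid cluster that holds these cells. C1qb became 0.649 with at least 1000 UMIs per cell, and its highest value over the settings was 1.44. C1qc became 0.613 with at most 5% mitochondrial UMIs and 0.489 with the whole cluster. The red pulp macrophages were shallow, with medians of 713 and 699 UMIs, and the 41 aged cells are below the minimum of 50 that was set for ordering levels. Even so they held 35.0% of the C1qa UMIs of all aged spleen cells and 32.3% of those of young spleen cells.

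Neutrophils and B cells of the spleen had C1q at or below free RNA. Spleen neutrophils gave 1 UMI of C1qa in aged (2.64 CPM) and 21 UMIs in young spleen (42.3 CPM). B cells had C1qa at 4.07 and 5.48 CPM, C1qb at 2.94 and 2.59 CPM and C1qc at 2.38 and 3.89 CPM, in at most 1.74% of cells, and these values were read as background. Neutrophils of the aged brain against those of the aged spleen thus differed 378-fold in C1qa (67.5 to 14988), 298-fold in C1qb and at least 86.8-fold in C1qc, for which spleen neutrophils had 0 UMIs and the bound uses 3 UMIs per library. Of 5 members measured in that comparison 3 were past 1.5-fold, all of them C1q chains, against 36.6% of 1635 genes (16.8% higher and 19.8% lower in brain). The aged spleen value rests on 40 cells. The microglial markers moved with them, at 3367 CPM over 11 of 11 markers in brain and 84.4 CPM over 5 of 11 in spleen neutrophils (Sall1, Siglech, Olfml3, Fcrls, Cx3cr1 and Sparc at 0), and their part in the difference was not tested.

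**Figure D2:**
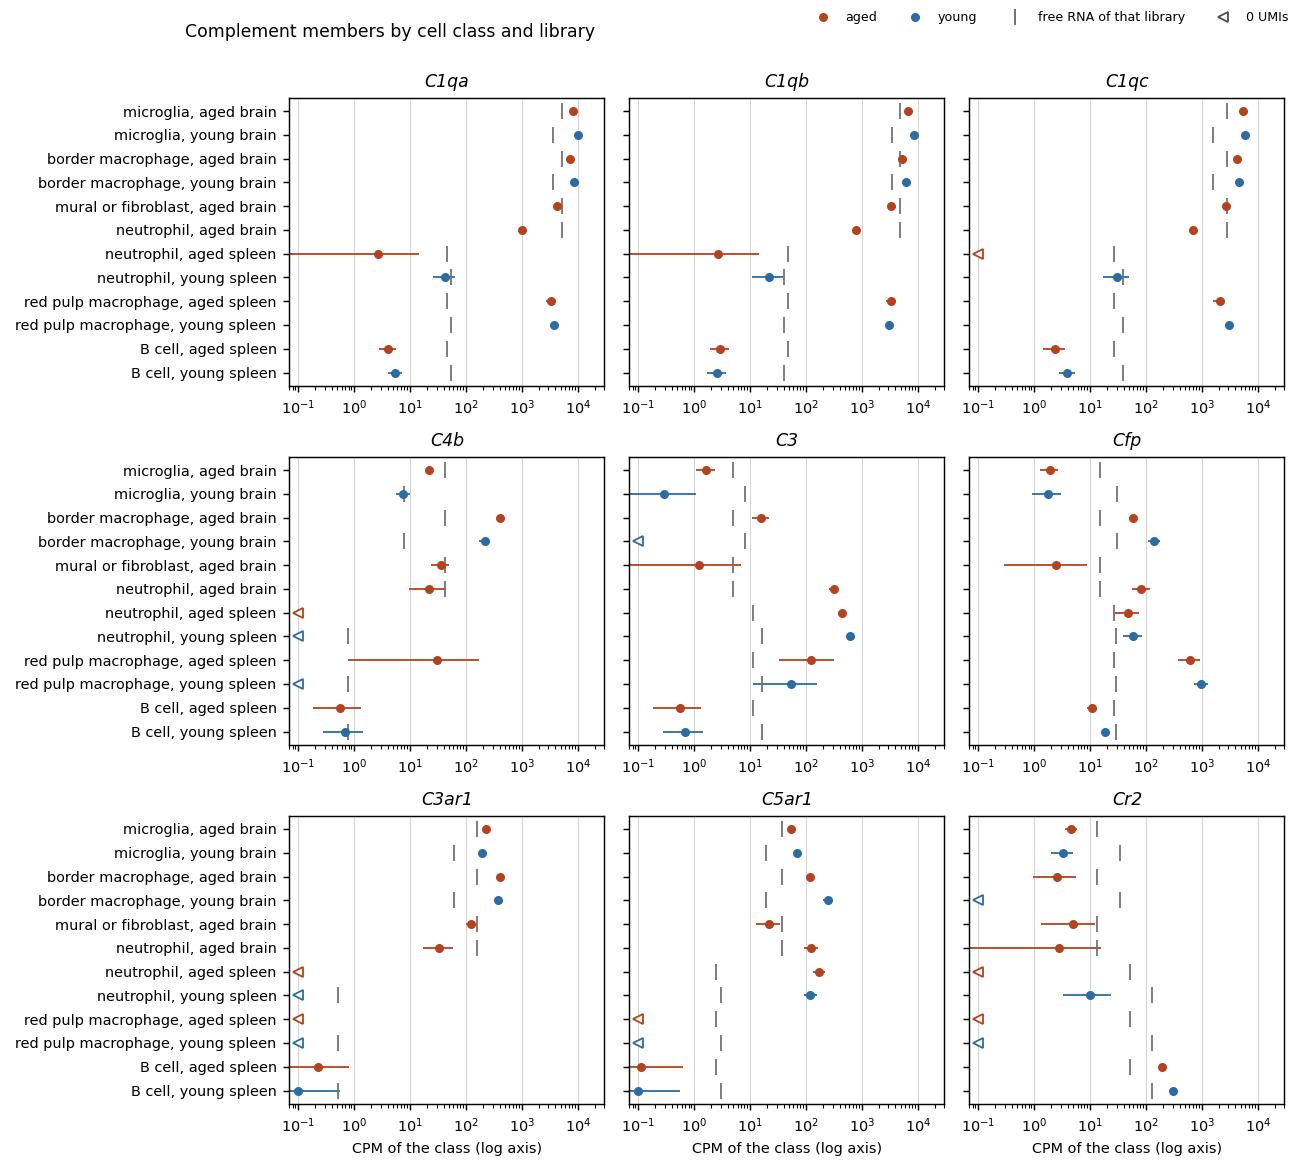
Level of the 9 members by cell class and library (CPM, log axis): points with 95% Poisson intervals, aged in red-brown, young in blue, grey ticks for the free RNA of the library where it held the gene, and open triangles at the left edge for 0 UMIs. C1q chains are high in all macrophage classes, C4b in border macrophages, C3 in neutrophils and Cr2 in B cells; the aged spleen neutrophils (40 cells) and red pulp macrophages (41 cells) are small.

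C4b, whose product follows C1q in the classical pathway, had most of its UMIs in border macrophages in these brains. Border macrophages had C4b at 407 CPM (381 to 434) in 41.1% of aged cells and at 216 CPM (174 to 265) in 19.4% of young cells. Microglia had C4b at 22.4 CPM in 4.58% of aged cells and 7.52 CPM in 1.2% of young cells. The border level was 18.2 times the microglial one in aged brain (16.1 to 20.6) and 28.7 times in young brain (20.2 to 41.3). With 8.21% of the cells, border macrophages held 63.0% of all C4b UMIs in aged brain, and with 5.69% of the cells 56.0% in young brain. C4b was nearly absent from spleen, with 11 UMIs over all aged and 18 over all young spleen cells.

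Aged border macrophages had 1.88 times the C4b level of young ones (1.52 to 2.36). The ratio was 1.49 when only cells with at most 5% mitochondrial UMIs were kept, just under the rule. The border class was then split by clustering each library separately. Aged and young groups of the same name, here and below, therefore may not match. The group low in MHC class II was led by Cd209b, Retnla and Ccl24 in aged and by Hist1h2ac, Cd209g and Apod in young brain. A further 66 young border cells were left unnamed. Within the border class, cells low in MHC class II (Lyve1, Cd209f; 384 aged and 82 young cells) had C4b at 652 CPM in aged and 309 CPM in young brain, a ratio of 2.11 (1.62 to 2.8), where 26.6% of all genes passed the rule. Cells high in MHC class II (H2-Aa, Cd74; 352 aged cells) had 143 CPM, and the 43 young cells gave 13 UMIs, with an aged to young ratio of 1.24 (0.7 to 2.39), where 36.2% of all genes passed the rule. The interval for the high cells overlaps that for the low cells, and the difference between them was not tested. Markers shifted within the class as well: from young to aged, the microglial list went from 5549 to 10152 CPM summed, the border macrophage list from 14399 to 9036 CPM, and the list for cells high in MHC class II from 8015 to 15079 CPM. The part of these shifts in the border ratios of C4b, Cfp and C5ar1 was not tested. Another 48 aged border cells led by the interferon genes Cxcl10, Iigp1 and Ifit3 had 87 C4b UMIs, and 57 with microglial genes such as Sparc and Sall1 had 351 CPM.

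In microglia the aged to young ratio of C4b was 2.97 (2.21 to 4.07), past the rule. Free RNA moved the same way, from 7.69 CPM in young to 41.9 CPM in aged brain, and the aged microglial level lies below it. Shares of cells with C4b in aged brain were 3.85% in neutrophils (median 4047 UMIs), 9.74% in endothelial cells (median 3030 UMIs) and 3.2% in choroid plexus or ependymal cells (median 987 UMIs), beside the 4.58% of microglia (median 2356 UMIs). The class value was not read as expression by microglia as a whole, and the part of free RNA in it was not tested. Within cluster 0 the counts behind the ratio were 326 UMIs in aged and 1 UMI in young microglia (4.03, 0.718 to 160). Microglia with an interferon signature (Ifit3, Cxcl10, Rsad2; 163 aged and 143 young cells) stood apart within each library, at 92.9 CPM against 20.3 CPM in aged microglia of no named state, a ratio of 4.57 (3.27 to 6.27), and at 39.2 against 5.63 CPM in young ones, a ratio of 6.96 (3.54 to 13). Both interferon values lie above the free RNA of their library. Across all genes 24.5% passed the 1.5-fold rule in each of these comparisons, and C4b was the 1 member past it among 7 measured in aged and 6 in young brain.

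C3, the component on which all pathways converge, was counted chiefly in myeloid cells, and in spleen mostly in neutrophils. Its level was 317 CPM (261 to 381) in 39 of 78 neutrophils of the aged brain, 443 CPM (379 to 515) in 47.5% of those of the aged spleen and 622 CPM (555 to 696) in 58.8% of those of the young spleen. Young spleen neutrophils were highest, and the intervals of the brain and aged spleen values barely meet. The aged to young ratio in spleen was 0.712 (0.586 to 0.862) and the ratio of aged brain to aged spleen was 0.715 (0.559 to 0.913), both within 1.5-fold. Neutrophils held 57.3% of the C3 UMIs of aged and 63.6% of those of young spleen, at 0.752% and 0.803% of the cells. In aged brain they held 42.5%, with 21.3% in mixed myeloid cells and 13.4% in border macrophages. All 3 levels are far above the free RNA, which held C3 at 4.89 to 16.5 CPM over the 4 libraries.

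Microglia and border macrophages held little C3. Aged microglia had 26 UMIs and young microglia 2, below free RNA in both brains. Aged border macrophages had 36 UMIs (15.7 CPM in 2.85% of cells) and young ones 0 UMIs, which allows up to 6.97 CPM. Of the 36 UMIs, 12 came from the 48 interferon-led border cells and 17 from cells high in MHC class II. The border to microglia ratio in aged brain was 9.59 (5.63 to 16.5). Among spleen myeloid cells, 45 cells led by Pla2g2d, Il18bp and Cd4 had C3 UMIs in 18 of 36 young and 4 of 9 aged cells. Another 25 monocyte-like cells had them in 15 of 16 young and 8 of 9 aged cells. The Pla2g2d-led cells were left unnamed, with the red pulp macrophage markers as the best match. By level, C3 ranked 129 of 5542 genes with a UMI in the young Pla2g2d-led cells and 151 of 2625 in the aged ones. In red pulp macrophages C3 ranked 2693 of 7126 in young and 1108 of 5642 in aged spleen.

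Cfp, the gene of properdin, was spread over several myeloid classes, and red pulp macrophages, border macrophages, neutrophils and mixed myeloid cells lay above free RNA. The mixed myeloid cells stood at 170 CPM in aged brain, 268 CPM in aged spleen and 236 CPM in young spleen, where the class includes the red pulp macrophages. Red pulp macrophages had Cfp at 611 CPM (373 to 943, 20 UMIs) in aged and 972 CPM (728 to 1271, 53 UMIs) in young spleen, against a free RNA level of 27.5 and 29.4 CPM. The ratio of 0.628 (0.356 to 1.07) passed the rule on its point value, but the interval includes 1 and several other settings ended the call. Border macrophages had 59.4 CPM (49.9 to 70.3) in 10.9% of aged cells and 142 CPM (108 to 182) in 17.8% of young cells, a ratio of 0.419 (0.308 to 0.577). Microglia had 1.89 and 1.77 CPM, below free RNA, and the border level was 31.4 times the microglial one in aged brain (21 to 48.3) and 80.1 times in young brain (42.7 to 163).

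Within aged border macrophages Cfp was 7.89 times higher in cells low in MHC class II than in those high in it (4.42 to 15.3), at 115 against 14.5 CPM. C4b differed 4.55-fold between the same cells (3.76 to 5.56) and C5ar1 2.50-fold (1.84 to 3.43), whereas C3ar1 stood at 419 and 405 CPM, a ratio of 1.04 (0.894 to 1.2). These 3 of 7 measured members compare with 25.1% of all genes past the rule. In young brain C4b alone of 6 passed (2.67, 1.45 to 5.31), against 47.1% of all genes. Among cells low in MHC class II alone the aged to young ratio of Cfp was 0.540 (0.374 to 0.792). Neutrophils had Cfp at 83.4 CPM in aged brain, 47.5 CPM in aged spleen and 58.4 CPM in young spleen, with 18 to 30 UMIs behind each value.

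**Figure D3:**
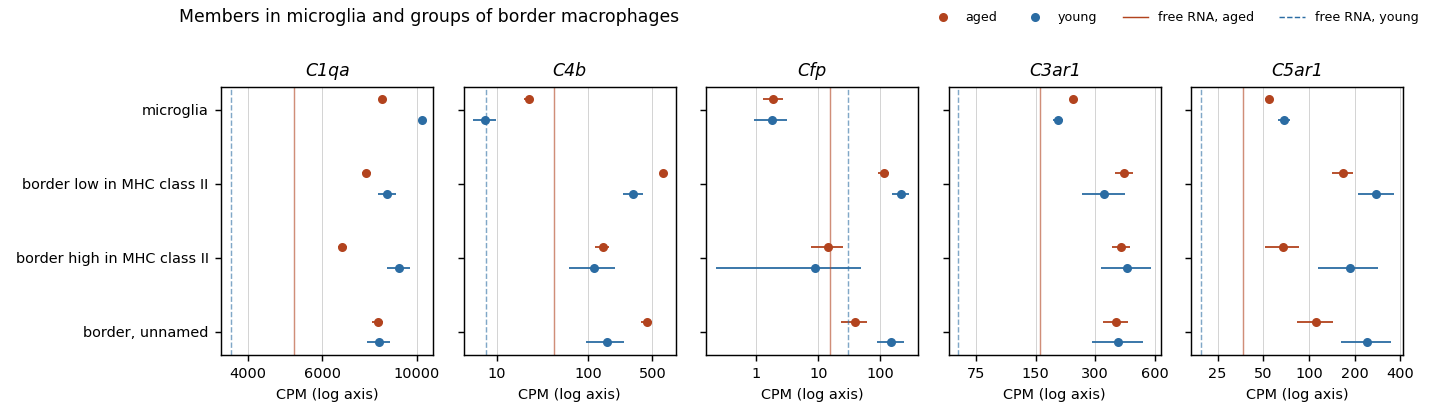
C1qa, C4b, Cfp, C3ar1 and C5ar1 in microglia and in groups of border macrophages (CPM, log axes that differ between panels): points with 95% Poisson intervals, aged in red-brown, young in blue, vertical lines for free RNA (solid aged, dashed young). C4b, Cfp and, in aged brain, C5ar1 are higher in cells low than in cells high in MHC class II (43 young cells), while C3ar1 lies between 334 and 435 CPM in both.

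The C3a receptor gene C3ar1 was a brain macrophage gene. Border macrophages had 405 CPM (380 to 432) in 59.7% of aged cells and 377 CPM (321 to 439) in 52.4% of young cells, with a ratio of 1.08 (0.910 to 1.28). Microglia had 231 CPM (224 to 239) in 40.6% of aged cells and 194 CPM (184 to 205) in 31.7% of young cells, with a ratio of 1.19 (1.12 to 1.27). Free RNA held C3ar1 at 158 CPM in aged and 61.1 CPM in young brain, so both classes lie above it and it is itself higher in the aged library. Border macrophages exceeded microglia 1.75-fold in aged (1.63 to 1.88) and 1.94-fold in young brain (1.63 to 2.28). Damage-state microglia of the aged brain (92 cells led by Lpl and Spp1) had 313 CPM, 1.37 times the level of microglia of no named state (1.12 to 1.66). This C3ar1 ratio is within the rule that 36.7% of all genes passed there. Of the 7 members measured in that comparison, 0 passed it as higher and 2 as lower. Spleen held almost none, with 13 UMIs over all aged and 11 over all young cells and 0 UMIs in red pulp macrophages, which allows up to 91.6 CPM in the aged and 55.0 CPM in the young ones.

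C5ar1, the receptor gene for C5a, was shared by brain macrophages and neutrophils. Border macrophages had 116 CPM (103 to 131) in 24.3% of aged cells and 244 CPM (200 to 295) in 36.6% of young cells, and the intervals do not meet. The ratio of 0.476 (0.379 to 0.603) was 0.602 (0.440 to 0.836) in cells low in MHC class II and 0.360 (0.216 to 0.623) in cells high in it, so it was past the rule in both. Microglia had 54.6 CPM (51.0 to 58.4) in aged and 68.3 CPM (62.2 to 74.8) in young brain, with free RNA at 37.0 and 19.4 CPM. The border level was 2.13 times the microglial one in aged (1.85 to 2.45) and 3.57 times in young brain (2.86 to 4.43). Against cells high in MHC class II alone the aged value was 1.23, within the rule.

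Neutrophils had C5ar1 at 125 CPM in aged brain, 171 CPM in aged spleen and 121 CPM in young spleen, in 39 of 78, 22 of 40 and 31 of 51 cells. The ratio of aged to young spleen was 1.42 (0.983 to 2.05) and that of aged brain to aged spleen 0.730 (0.488 to 1.08), and both intervals include 1. Free RNA of the spleens held 2.50 and 3.09 CPM. Neutrophils held 56.0% of the C5ar1 UMIs of aged and 90.9% of those of young spleen. By level, C5ar1 ranked 822 of 9061 genes with a UMI in the 9 aged monocyte-like cells of the spleen. In the 16 young ones it ranked 6285 of 8920. Red pulp macrophages had 0 UMIs.

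Cr2, the receptor for C3 fragments on B cells, was counted mainly in B cells, which held 93.3% of its UMIs in aged and 95.0% in young spleen. B cells had Cr2 at 197 CPM (188 to 206) in 39.6% of aged cells and 310 CPM (300 to 321) in 53.1% of young cells. T cells, which should lack it, had 2.58 and 4.12 CPM in 1.42% and 2.08% of cells at median depths of 5355.5 and 4931.5 UMIs, against 4162 and 3783.5 UMIs for B cells. Free RNA held 53.1 CPM in aged and 128 CPM in young spleen. Thinned to 1000 UMIs, 13.7% of 1915 aged and 23.6% of 2377 young B cells had a Cr2 UMI.

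The aged to young ratio of Cr2 in B cells was 0.635 (0.598 to 0.673), past the rule. It became 0.692, just inside the rule, with median-of-ratios size factors, and the 10 B cell markers summed to 9320 CPM in aged against 12073 CPM in young B cells. Most aged B cells (1580) fell in cluster 13 (Ebf1, Scd1, Egr3, Irf4), and most young ones (1676) in cluster 14 (Iglc1, Ms4a1, Ly6d, Fcer2a). Within cluster 13 the Cr2 ratio was 0.626 (0.575 to 0.682), where 16.4% of all genes passed, and within cluster 14 it was 0.516 (0.448 to 0.592), where 15.1% did. Marginal zone B cells (Myof, Cd36, Fcrl5; 202 aged and 79 young cells) had the highest Cr2, 496 CPM in 72.3% of aged cells and 874 CPM in 96.2% of young cells, a ratio of 0.567 (0.504 to 0.638) where 21.9% of all genes passed. The other B cells had 139 and 277 CPM, a ratio of 0.503 (0.468 to 0.541) where 16.0% passed. Marginal zone cells thus exceeded other B cells 3.55-fold in aged (3.22 to 3.91) and 3.15-fold in young spleen (2.86 to 3.47). Marginal zone cells were also deeper, with medians of 6523.5 and 6540 UMIs. They were split from the other B cells in each library separately, so the aged and young groups may not match.

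Cfp was also counted in B cells, and the part of free RNA in its level was not tested. It stood at 11.1 CPM (9 to 13.5) in aged and 18.3 CPM (15.8 to 21.2) in young B cells, below the free RNA of 27.5 and 29.4 CPM but above T cells at 4.89 and 3.68 CPM. The shares were 3.41% of aged and 5.77% of young B cells against 2.6% and 1.93% of the deeper T cells, and only the young intervals do not meet (4.87% to 6.77% against 1.25% to 2.84%). The aged to young ratio was 0.604 (0.468 to 0.777). Within cluster 13 it was 0.925 (0.581 to 1.51) and within cluster 14 it was 0.95 (0.615 to 1.42), both near 1, so the call was lost within each cluster. Marginal zone B cells had Cfp at 30.1 and 59.5 CPM, 4.06 times the other B cells in aged (2.66 to 6.17) and 3.73 times in young spleen (2.48 to 5.47). Only 2 members, Cr2 and Cfp, had at least 50 UMIs in marginal zone against other B cells of the aged spleen. Both were higher past the rule, where 23.1% of all genes passed. In young spleen, where 29.2% passed, all 3 measured members did. Cr2 and Cfp were higher there, and C1qa was lower, with 1 UMI in marginal zone cells.

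**Figure D4:**
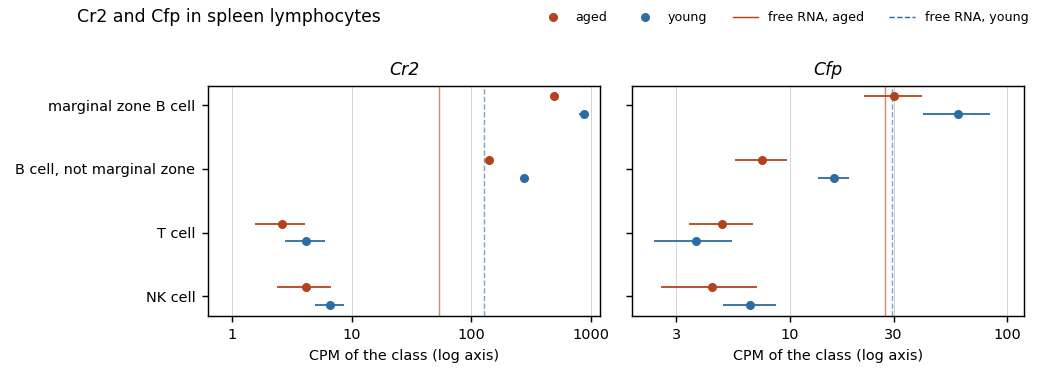
Cr2 and Cfp in spleen lymphocytes (CPM, log axes): points with 95% Poisson intervals, aged in red-brown, young in blue, vertical lines for free RNA (solid aged, dashed young). Marginal zone B cells are highest for both genes, T and NK cells lie far below the free RNA, and aged B cells lie left of young ones for both genes.

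Counted over the members, the share past the rule with age was near that of all genes in microglia and red pulp macrophages. In microglia 1 of 7 measured members (C4b higher, at levels below free RNA in both libraries) passed the 1.5-fold rule, against 17.1% of 11009 genes (12.5% higher and 4.61% lower). In border macrophages 3 of 7 passed (C4b higher, Cfp and C5ar1 lower), against 29.1% of 6518 genes (18.8% higher and 10.2% lower). For red pulp macrophages it was 1 of 4 (Cfp lower), against 23.6% of 229 genes (5.68% higher and 17.9% lower). No member of the 2 measured in spleen neutrophils passed, against 17.7% of 2002 genes (7.99% higher and 9.69% lower). In B cells 3 of 5 passed, all lower (Cr2, Cfp and C1qc, the last with 21 and 39 UMIs at background level), against 14.6% of 9601 genes (5.27% higher and 9.3% lower). The median log2 ratio of the measured members was -0.13 in microglia, -0.22 in border macrophages and -0.66 in B cells, beside 0.09, 0.06 and -0.12 over all genes tested.

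**Figure D5:**
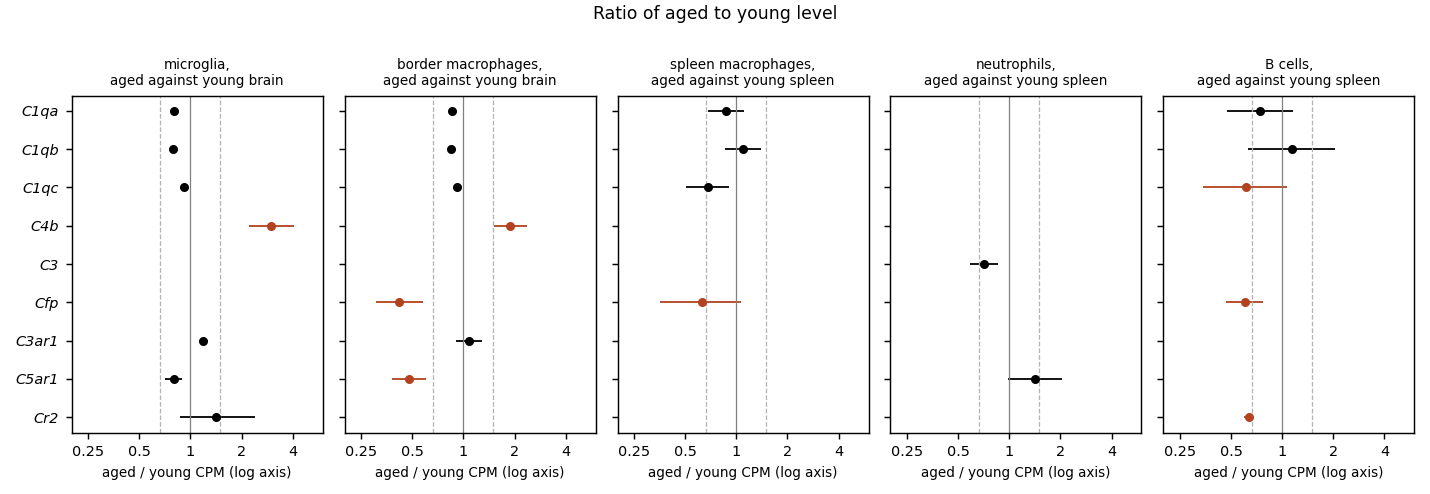
Ratio of the aged to the young level of each member with at least 50 UMIs over both sums, in 5 cell classes (log axis): points with 95% conditional binomial intervals for counting error, dashed lines at 1.5-fold either way, red-brown for ratios past it. C4b is higher and Cfp and C5ar1 are lower in aged border macrophages, and Cr2 is lower in aged B cells, while the C1q chains of brain macrophages stay between 0.794 and 0.919.

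Between border macrophages and microglia the members differed more. In aged brain 6 of 9 passed the rule, C3, C4b, Cfp, C3ar1 and C5ar1 higher and Cr2 lower (6 and 73 UMIs, below free RNA in both), against 30.8% of 10856 genes (9.34% higher and 21.5% lower). In young brain 4 of 7 passed, C4b, Cfp, C3ar1 and C5ar1, all higher, against 43.7% of 9044 genes (13.4% higher and 30.3% lower). Median-of-ratios size factors moved the log2 ratio of all genes by 0.19 in the aged comparison and by 0.12 in B cells, and by less than 0.1 in the other comparisons. They also moved the share of higher genes among all genes past the rule from 30.3% to 49.2% for border macrophages against microglia, from 36.2% to 60.2% in B cells, from 73.0% to 61.0% in microglia and from 24.1% to 41.3% in red pulp macrophages.

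Across 22 combinations of class and library with at least 50 cells, the C1q chains had nearly the same profile. The Pearson r of log2(CPM + 10) was 0.999 between C1qa and C1qc and between C1qa and C1qb, and the next most similar of 11476 genes was Csf1r, the microglia and macrophage growth factor receptor gene, at 0.992 to 0.995. C3 was most similar to Mcemp1 (0.971), Ltb4r1 (0.967) and Hp (0.966). C4b was most similar to Pf4 (0.963), Ms4a7 (0.941) and Gm4951 (0.934), and C3ar1 to Ang (0.983), Stab1 (0.982) and Rnase4 (0.981). Cr2 was most similar to Ffar1 (0.978), Fcer2a (0.974) and Bfsp2 (0.970), Cfp to Plbd1 (0.926), Emilin2 (0.916) and Rgs18 (0.882), and C5ar1 to Siglece (0.909), Clec4a2 (0.892) and Slc31a2 (0.890). Among the members C1qa was near C3ar1 (0.935) and far from Cr2 (-0.485). The combinations share libraries and their free RNA, so these values describe likeness only.

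Of 41 other complement genes, listed by role but also with earlier results of these data known, 40 were analysed. In microglia 13 had enough UMIs, and 9 of them were higher and 0 lower in the aged library, with a median log2 ratio of 0.96, against 12.5% higher and 4.61% lower over all genes. They included Vtn (6.24-fold), Masp2 (4.45-fold), Cd59a (4.37-fold), Masp1 (4.17-fold), Clu (2.36-fold) and C5ar2 (1.81-fold), which encodes another C5a receptor. Cells of other types moved with this list: in aged against young microglia the 8 mural markers summed to 68.4 against 4.13 CPM (8 and 7 of 8 found, Abcc9 at 0 in young) and the 10 choroid plexus or ependymal markers to 3820 against 855 CPM (Tmem212 at 0 in aged, Ccdc153 at 0 in young). Free RNA moved too, from 7.69 to 68.0 CPM for Vtn and from 139 to 212 CPM for Clu, and the aged values lie above the microglial levels of 11.1 and 46.2 CPM in aged brain. C5ar2 stood above it, at 116 CPM in aged microglia against 60.9 CPM in free RNA and at 64.5 against 26.7 CPM in young brain. The part of other cells in these differences was not tested.

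Receptor subunits were among the more abundant of these genes. Itgam, a chain of complement receptor 3, stood at 508 and 463 CPM in microglia, and its partner Itgb2 at 284 and 232 CPM. In border macrophages 10 genes were measured, and Itgam (2.06-fold), Itgb2 (1.85-fold), Clu (2.03-fold) and C5ar2 (1.81-fold) were higher and the component C2 (0.423-fold) lower in the aged library, against 18.8% higher and 10.2% lower over all genes. Aged border macrophages exceeded aged microglia in Fcna (103-fold), C2 (99.7-fold), Cd93 (72.2-fold), Cd55 (17-fold) and Itgax (1.66-fold), with C1ra as the other higher gene (1.80-fold). They were lower in 7 of 17, among them Itgam (0.481-fold), C5ar2 (0.578-fold), Itgb2 (0.636-fold) and Masp1 (0.296-fold), and higher in 6, against 21.5% lower and 9.34% higher over all genes.

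The spleen classes had few other complement genes with enough UMIs. Fcna, a ficolin gene, was the 1 gene measured in red pulp macrophages and stood at 611 CPM in aged and 1651 CPM in young ones, a ratio of 0.370 (0.216 to 0.606). Fcnb was lower in aged than in young spleen neutrophils (0.476, 0.394 to 0.573; 1 of 3 genes measured, against 9.69% lower over all genes) and higher in aged brain than in aged spleen neutrophils (1.97, 1.62 to 2.41). Cd55, which speeds the decay of the C3 convertases, was the most abundant in B cells and lower in aged ones, at 351 against 534 CPM (0.657, 0.629 to 0.687). Itgax was the other lower gene of 7 measured in B cells (0.504, 0.261 to 0.932), against 9.3% lower over all genes.

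The authors' deposited table of genes that mark the clusters of each library also lists members, with the share of cells in which each was found. For aged brain, the authors' deposited table gives C4b in 33.1% of the cells of cluster 4, led by Cd74 and H2-Eb1, against 3.0% of the other cells. It gives C3 in 43.3% against 0.6%, Cfp in 25.4% against 1.1% and C5ar1 in 55.2% against 6.4% for cluster 12, led by S100a9, in the authors' deposited table. For young brain the authors' deposited table lists C5ar1 in 30% against 4.5% for cluster 9, led by Apoe, Lyz2 and Pf4. Cr2 is listed in 40.1% against 4.6% of cells for cluster 0 of aged spleen and in 53.0% against 7.7% for cluster 0 of young spleen in the authors' deposited table. The clusters and denominators differ from the classes above.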

How the data were processed

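UMIs per gene and barcode were deposited by the authors as raw counts, not filtered for cells, for 31053 genes; per the file headers the matrices were written by software version 3.1.0, and per the submitters' processing notes Cell Ranger 1.3.1 and the build GRCh38 were used, which is a human build although the gene identifiers are mouse. The authors' deposited cluster tables give the share of cells with a gene as a fraction, shown as a percent. Per the labels the libraries used the 10x 3′ kit, version 2, with at least 50000 reads per cell.

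Barcodes with at least 500 UMIs and 250 genes that differed from the free RNA and had at most 10% mitochondrial UMIs were kept, doublets were removed, and cells were clustered (scanpy 1.11.5, Leiden resolution 1.0) without any complement gene. Doublets were taken at the caller's own threshold in the spleens (156 and 240 cells); in the brains that threshold marked 0 and 3 cells, so the highest scores were removed (1012 and 608). Class UMI sums were turned into CPM, with intervals from scipy 1.17.1, and the ratio calls were tested on simulated data. A count of 0 was set at 3 UMIs for bounds. The members, lists and classes were chosen with earlier results of these data known. All 9 members are named; of the other complement genes, up to 5 past the rule in each direction of a comparison and up to 3 of the highest level in a class; and the 3 genes most like each member. C3 in the Pla2g2d and monocyte-like cells, C5ar1 in the monocyte-like cells, C1ra, and C5ar2 in microglia were named after their values were seen. Of the genes this rule names, 1 is not reported here.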

Additional observations from a re-analysis of the deposited data

How the results depend on the processing

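Alternatives gave 417 values for single genes, of which 342 stayed within the counting interval of the reported ratio, 73 moved outside it and 2 changed direction. The counts of members past 1.5-fold that moved by more than 1.5 times were as follows. In microglia, aged against young, 1 became 2 with at least 1000 UMIs per cell, with at most 5% mitochondrial UMIs, with a minimum of 20 UMIs and with the low-RNA cluster counted as microglia. In border macrophages, aged against young, 3 became 1 with cells high in MHC class II alone. Border macrophages against microglia went from 6 to 3 with those cells alone and with thinned cells. In spleen macrophages 1 became 0 with Leiden resolution 2.0, a fold of 2, the mean of the CPM of each cell and size factors, and 2 with the whole mixed myeloid cluster, where the Cfp ratio was 1.14 in place of 0.628. In spleen neutrophils 0 became 1 with a minimum of 20 UMIs. In B cells 3 became 0 with a fold of 2 and 1 with at most 5% mitochondrial UMIs, which kept 316 of 1933 aged and 791 of 2410 young cells and gave a Cfp ratio of 1.10 in place of 0.604. Smaller moves included those from 3 to 2 in border macrophages with at most 5% mitochondrial UMIs and with a fold of 2 (C4b lost), from 3 to 2 in B cells with size factors (Cr2 lost, 0.692), and from 6 to 4 in border macrophages against microglia with a fold of 2 (C3ar1 and Cr2 lost). The causes were not tested. The fold of 2 and the UMI minimum change the rule itself. The marginal zone, MHC class II, low-RNA, myeloid, interferon and cluster splits were chosen after seeing the data. No paired analysis was possible because each group has 1 library.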
